A study of Mus musculus with 4 samples.

Results

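Follicular helper-like Cd4 cells of the pancreatic islets were selected from single-cell RNA libraries of sorted T cells by a rule on transcripts. A cell was selected when it had no UMI (unique molecular identifier, 1 captured transcript molecule) of Cd8a, Cd8b1 or Foxp3, at least 1 UMI of 3 or more of the 10 markers Cxcr5, Il21, Tnfsf8, Sostdc1, Tbc1d4, Nrn1, Gpm6b, Cd200, Angptl2 and Tox2, and fewer than 4 of 10 cell division genes. The rule took 473 of the 3809 cells that passed the cell filter, 273 of 1875 in the 8-week library and 200 of 1934 in the 16-week library. They were set against the comparison cells, the other cells of the same library without Cd8a, Cd8b1 or Foxp3, which numbered 1039 and 1169. The comparison cells thus included dividing cells, of which 42 of 55 at 8 weeks and 23 of 36 at 16 weeks had 3 or more markers.

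The mice were NOD females, a strain that develops autoimmune diabetes spontaneously, and both age groups, 8 weeks and 16 weeks, were labelled pre-diabetic and received no treatment named in the labels. Live TCR beta-positive cells were sorted from islets, with DAPI to leave out dead cells. Each age gave 1 RNA library and 1 matched library of T cell receptor chains, and the number of mice behind a library is not given in the sources used here. With 1 library per age no test of a difference between cells or ages was possible: the intervals below are 95% intervals that cover counting error only, and a difference between the ages is a difference between these 2 libraries.

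Follicular helper T cells are Cd4 cells that help B cells make antibody in germinal centres. The chemokine receptor Cxcr5 takes them into the follicle, Icos and Cd40lg carry the contact signals, Il21 is their cytokine and Bcl6 is the transcription factor that defines the lineage, opposed by Prdm1, Klf2 and S1pr1. Cells with part of this programme also arise outside follicles in inflamed tissue, where they can lack Cxcr5.

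The libraries held 8659371 and 8183747 UMIs over 2043 and 2107 barcodes at 8 and 16 weeks, and 5 barcodes of kept cells occurred in both libraries. The selected cells were deeper than the comparison cells, at a median of 4493 against 2519 UMIs at 8 weeks and 3686 against 2623 UMIs at 16 weeks, and a rule that asks for detected markers takes deep cells more easily. Cells with 2 or more productive beta chains, a sign of 2 cells in 1 droplet, made up 13.3% and 21.6% of the beta chain-bearing selected cells at 8 and 16 weeks, against 6.11% and 7.77% of the comparison cells. No doublet caller was run.

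The largest clones and the receptors that recurred are shown first, because they join these cells across libraries by a readout that the rule did not use. The sequences are the CDR3 nucleotides of the deposited contigs, 5′ to 3′, in lower case, with capitals at the positions where versions of one receptor differ although the encoded amino acids and the V and J segments of both chains are the same. The largest clone at 8 weeks, TRAV21-DV12/TRAJ57 with TRBV13-2/TRBJ2-7, held 11 selected cells and no other cell, and its beta chain returned in another spelling in 1 comparison cell at 16 weeks.
Alpha chain, 8 and 16 weeks: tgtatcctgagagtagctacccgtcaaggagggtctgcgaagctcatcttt
Beta chain, 8 weeks: tgtgccagcggGggAtatgaacagtacttc
Beta chain, 16 weeks: tgtgccagcggTggGtatgaacagtacttc
Counted from the first base of the CDR3, the 16-week beta chain differed from the 8-week one by G12T and A15G, and the alpha chain was the same in all its 51 bases.

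The receptor TRAV16N/TRAJ23 with TRBV15/TRBJ2-7 occurred in 3 spellings, and each was found in a selected cell. Version 1 was carried by 3 selected cells and 1 cell with Cd8a or Cd8b1 and no Foxp3 at 8 weeks. Version 2 was carried by 1 selected cell at 8 weeks and version 3 by 1 selected cell at 16 weeks.
Alpha chain, version 1: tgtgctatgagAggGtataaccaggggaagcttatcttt
Alpha chain, version 2: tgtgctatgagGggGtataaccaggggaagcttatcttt
Alpha chain, version 3: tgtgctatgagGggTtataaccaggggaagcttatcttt
Beta chain, version 1: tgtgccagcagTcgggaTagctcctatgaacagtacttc
Beta chain, version 2: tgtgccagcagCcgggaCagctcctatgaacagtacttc
Beta chain, version 3: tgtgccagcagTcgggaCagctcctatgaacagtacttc
Against version 1, version 2 carried A12G in the alpha chain and T12C and T18C in the beta chain, and version 3 carried A12G and G15T in the alpha chain and T18C in the beta chain.

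Another receptor, TRAV5-4/TRAJ56 with TRBV1/TRBJ2-7, had the same nucleotides at both ages. It was carried by 1 selected cell and 1 dividing cell at 8 weeks and by 2 selected cells at 16 weeks.
Alpha chain, both ages: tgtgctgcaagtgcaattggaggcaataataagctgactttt
Beta chain, both ages: tgcagtgggacatatgaacagtacttc
A set required the same amino acids and V and J segments in every productive chain of the cells. In all, 5 such sets of receptors either recurred between the ages or had more than 1 spelling, and 3 of these sets held a selected cell. Receptors with an extra chain were missed, so these counts can be too low. At 8 weeks 2 clones of 3 selected cells each shared the TRAV16N/TRAJ15 alpha chain. Their TRBV13-1/TRBJ2-5 beta chains differed in nucleotides but not in amino acids, and 1 clone had a second alpha chain. Counted once in each library, so that a receptor found at both ages counts at each, the sets included 6 of 336 receptors of selected cells, 1.79% (0.658 to 3.85, Clopper-Pearson), and 1 of 1394 of non-dividing comparison cells, 0.0717% (0.00182 to 0.399). Among receptors of cells with Cd8a or Cd8b1 and no Foxp3, whether or not they had a Cd4 UMI, 5 of 504 were in such a set, 0.992% (0.323 to 2.30). The 6 receptors of selected cells came from 3 sets. Receptors of the same set are not independent, which these intervals do not cover.

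The label was first checked on lineage genes. Cd3e, a chain of the receptor complex of all T cells, had a UMI in 272 of 273 selected cells of the younger and 197 of 200 of the older library. A Cd4 UMI was present in 76.2% and 76.0% of selected cells, against 43.3% and 42.5% of comparison cells. After every cell was thinned to 1700 UMIs, with 9 and 12 selected and 144 and 108 comparison cells too shallow to keep, the shares were 44.7% against 28.5% at 8 weeks and 48.9% against 29.5% at 16 weeks. Lists of other cell types' genes were also summed. Cd79a and Ms4a1, which B cells express, had 0 UMIs in the selected cells of both libraries, while the 7 genes of the B cell list summed to 24.0 CPM (a gene's UMIs relative to all UMIs of the same cells, scaled alike in every group) in selected and 466 in comparison cells at 8 weeks and to 28.1 and 66.3 at 16 weeks. The acinar list, digestive enzymes of the exocrine pancreas, summed to 69.2 against 161 and to 96.1 against 217 CPM, and none of its 8 genes was at 0 in selected cells. The myeloid list was not lower in selected cells: it summed to 243 (218 to 270) against 245 (229 to 261) CPM at 8 weeks and to 254 (222 to 288) against 195 (181 to 209) at 16 weeks, with C1qa, C1qb, Adgre1 and Cd14 at 0 in selected cells of both libraries. The part of B cell, acinar and myeloid RNA in the ratios to comparison cells was not tested beyond 1 alternative. It left out comparison cells that have 2 or more genes of the B cell, acinar, myeloid or NK list. It moved no gene count by over 1.5-fold and no recomputed list median out of the median limits of its genes' intervals. The lists of T cell identity, cytokines, Th2, Th17, receptor signalling, tissue residency, glycolysis and type I interferon were not recomputed under any alternative.

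The follicular helper label held in part. Bcl6 had a UMI in 22 of 273 selected cells of the 8-week library and 11 of 200 of the 16-week library, 8.06% and 5.50%, against 26 of 1039 and 26 of 1169 comparison cells and 3.20% and 1.96% of Cd8 cells (with Cd8a or Cd8b1, without Cd4 or Foxp3), at median depths of 3304 and 3211 UMIs in the Cd8 cells. Its level was 18.4 against 8.13 CPM at 8 weeks, a log2 ratio of 1.18 (0.35 to 1.99), and 11.9 against 7.84 at 16 weeks, a log2 ratio of 0.64 (-0.55 to 1.64). At 16 weeks the Bcl6 difference was therefore not detectable at this depth. The Bcl6 shares above were read at unlike depths. After thinning, Bcl6 was detected in 2.65% of selected and 1.23% of comparison cells at 8 weeks and 2.13% and 1.13% at 16 weeks. Cells with Foxp3 had a Bcl6 UMI in 2.54% at 8 weeks and 5.61% at 16 weeks, and in 0.469% and 0% after thinning. The log2 ratio of selected to Foxp3 cells was 2.31 (1.08 to 3.97) at 8 weeks and 0.45 (-0.88 to 1.75) at 16 weeks. Cxcr5, although part of the rule, was found in 70 of 273 and 36 of 200 selected cells, and Bcl6 and Cxcr5 together in 9 and 4. The name follicular helper-like thus rests on the markers of the rule, with Bcl6 and Cxcr5 in a minority of cells.

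The markers of the rule are given as a description. Cd200, an inhibitory ligand of the immunoglobulin family, was detected in 80.6% of selected cells at 8 weeks and 76.0% at 16 weeks, and Tbc1d4, a Rab GTPase-activating protein, in 79.5% and 83.0%. Tnfsf8, the ligand of CD30, was detected in 60.1% and 64.0%. Il21 was detected in 90 of 273 and 80 of 200. Sostdc1, a secreted BMP and Wnt antagonist, was detected in 9 and 17 selected cells, and 1 cell held 26.5% and 32.0% of its UMIs. Values with a marker left out of the rule are also a description, since the markers were chosen as one set and a rule on the other 9 again takes deeper cells. With Il21 left out of the rule, Il21 was at 94.3 CPM in the cells selected by the other markers and at 16.5 in the rest at 8 weeks, a log2 ratio of 2.51, and at 140 against 19.9 at 16 weeks, a log2 ratio of 2.80. With Cxcr5 left out, its log2 ratio was 1.71 and 1.77. Over the 10 markers these ratios ranged from 1.47 (Tox2) to 5.64 (Sostdc1) at 8 weeks and from 1.77 (Cxcr5) to 5.25 (Sostdc1) at 16 weeks.

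**Figure D1:**
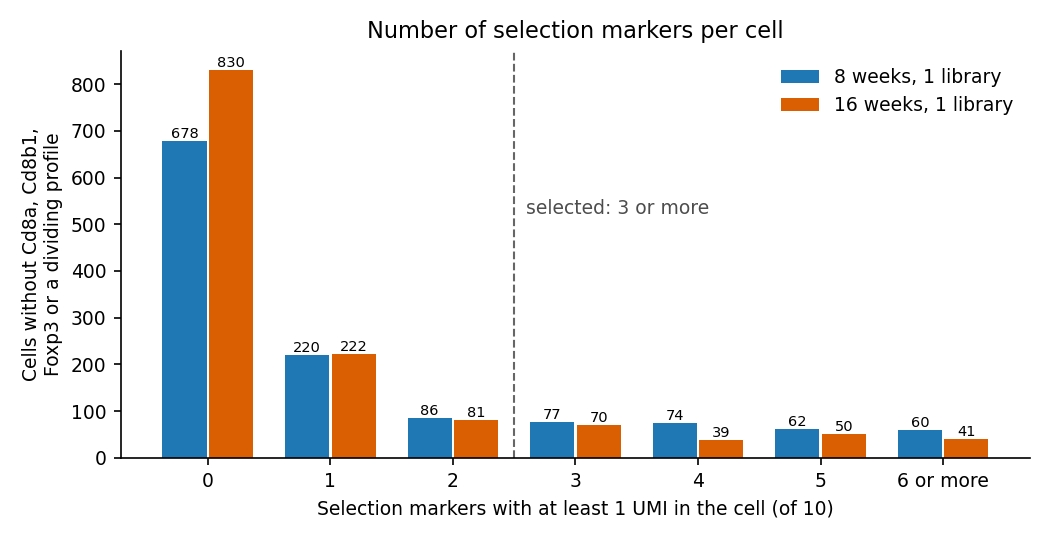
Number of cells (y axis) by how many of the 10 selection markers had at least 1 UMI (x axis), among cells without Cd8a, Cd8b1, Foxp3 or a dividing profile, 1 library per age; the dashed line is the selection limit. Cells with no marker were most frequent, 678 at 8 and 830 at 16 weeks, and the counts have no gap at the limit, from 86 and 81 cells with 2 markers to 77 and 70 with 3.

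The number of markers had no gap at the selection limit, as the plot of marker number shows. Selected cells had a median of 4 markers at both ages and at most 9. Cells just outside the rule, with 2 markers, and just inside it, with 3, shared part of the profile. Izumo1r, which encodes folate receptor 4, was at 522 CPM with 2 markers and at 872 with 3 at 8 weeks, and at 675 and 927 at 16 weeks, against 178 and 120 in cells with none. Pdcd1, which encodes the inhibitory receptor PD-1, was at 161 and 255 at 8 weeks and at 122 and 166 at 16 weeks. Klf2, a transcription factor that holds T cells in recirculation, was at 442 and 362 at 8 weeks and at 800 and 308 at 16 weeks. Lag3, an inhibitory receptor that binds MHC class II, was at 36.4 with no marker, 238 with 2, 319 with 3 and 510 with 5 at 8 weeks, levels of pooled cells whose depth also differed, at medians of 2442 and 5602 UMIs per cell with 0 and 5 markers.

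The selected cells made up 20.8% (18.6 to 23.1, Clopper-Pearson) of the 1312 cells without Cd8a, Cd8b1 or Foxp3 at 8 weeks and 14.6% (12.8 to 16.6) of 1369 at 16 weeks, a difference of -6.20 percentage points (-9.09 to -3.31, Newcombe). On cells thinned to 1700 UMIs, the markers read in the cells with no Cd8a, Cd8b1 or Foxp3 UMI at full depth gave 12.6% (10.7 to 14.6) and 8.17% (6.71 to 9.83), and 153 and 120 cells were too shallow. The same marker rule passed 8.19% (5.26 to 12.0) of 281 Cd8 cells at 8 weeks and 4.25% (2.28 to 7.16) of 306 at 16 weeks, and 1.11% (0.229 to 3.20) and 2.41% (0.972 to 4.89) when thinned. Of 236 and 196 Foxp3 cells it passed 57 and 51, 24.2% and 26.0%, and 7.04% (3.99 to 11.3) and 7.78% (4.32 to 12.7) when thinned. Foxp3 cells that pass the markers were kept out of the selected cells by the rule, and a selected cell whose Foxp3 transcript was missed could not be told from one without it.

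Outside the genes of the rule, 7849 genes had 20 or more UMIs in the selected cells or in the comparison cells, in each library. Of these, 155 (1.97%) had a log2 ratio of 1 or more in both libraries with at least 20 UMIs in the selected cells, and 190 (2.42%) had a log2 ratio of -1 or less in both. The median log2 ratio over all of them was 0.02 at 8 weeks and 0.11 at 16 weeks. Scaling by the median of ratios in place of total UMIs moved these medians to -0.05 and -0.05 and the counts to 123 and 234, so the higher genes were 44.9% of those past the limit with one scaling and 34.5% with the other. Depth moved the counts too: comparison cells matched to the depth of the selected cells gave 101 higher and 183 lower genes, and the rule read on cells thinned to 1700 UMIs gave 78 and 225. In the other direction, comparison cells without dividing cells gave 208 higher and 180 lower genes, and equal weight per cell gave 212 and 223.

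**Figure D2:**
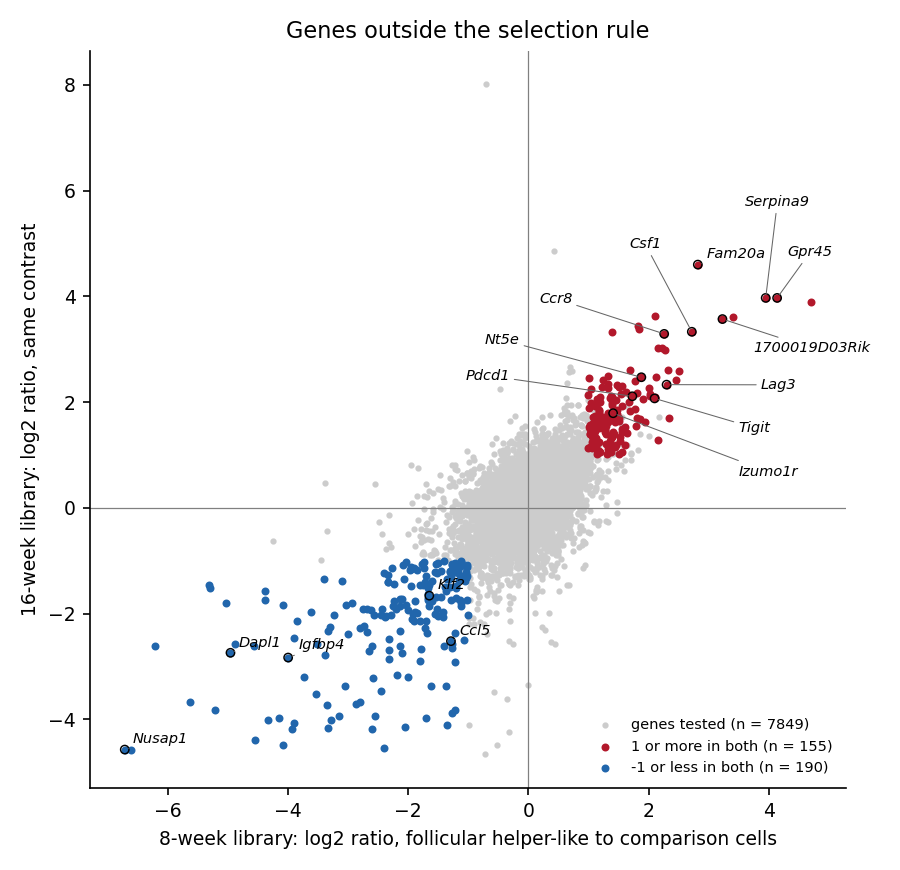
Log2 ratio of summed CPM, selected to comparison cells, in the 8-week (x axis) and 16-week (y axis) library, 1 point per gene outside the selection rule; red and blue points are past 1 or -1 in both libraries with 20 or more UMIs on the higher side. The 155 red genes include Gpr45, Serpina9, Fam20a and Lag3 and the 190 blue genes include Igfbp4 and Dapl1; the grey point at 8.01 on the y axis is Spp1, and ratios include 0.5 added UMIs, so genes at 0 UMIs have no exact place.

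The genes highest in the selected cells were led by transcripts that few comparison cells had. By the smaller of the 2 libraries' ratios, the first 15 were Gpr45, Serpina9, 1700019D03Rik, Fam20a, Csf1, Tiam1, Gbp2b, Plekho1, Lag3, Ccr8, Prnp, Abhd4, Dhrs3, Zan and Eea1. Gpr45, an orphan G protein-coupled receptor gene (chromosome 1, 42952872 to 43035456, plus strand, GRCm38), had 24 UMIs in 19 selected cells against 3 UMIs in comparison cells at 8 weeks, a log2 ratio of 4.14 (2.61 to 6.71), and 25 UMIs in 23 cells against 6 at 16 weeks, 3.97 (2.74 to 5.63). Serpina9, a serine protease inhibitor of germinal centre B cells (chromosome 12, 103994743 to 104013755, minus strand), had 21 UMIs in 16 selected cells against 3 at 8 weeks, 3.95 (2.40 to 6.53), and 25 UMIs in 19 cells against 6 at 16 weeks, 3.97 (2.74 to 5.63). The 7 genes of the B cell list had 34 and 26 UMIs in the selected cells, and their part in the Serpina9 value was not tested. 1700019D03Rik, a protein-coding gene (chromosome 1, 52922324 to 53020179, minus strand), was at 327 CPM in selected and 34.8 in comparison cells at 8 weeks and at 333 and 27.9 at 16 weeks. It was detected in 56.8% and 57.5% of selected cells, and in 33.3% and 39.4% of them after thinning, against 3.24% and 2.64% of thinned comparison cells.

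Ligands and receptors stood among the 15. Csf1, the growth factor of macrophages, was at 28.3 against 4.20 CPM at 8 weeks, a log2 ratio of 2.72 (1.86 to 3.71), and at 49.7 against 4.87 at 16 weeks, 3.33 (2.54 to 4.23). Ccr8, a chemokine receptor of Th2 and regulatory T cells, was at 57.9 against 12.1 and at 61.6 against 6.22, log2 ratios of 2.26 (1.72 to 2.83) and 3.29 (2.59 to 4.07). Tiam1, an activator of the small GTPase Rac, was at 89.7 against 15.7 and at 109 against 18.1, log2 ratios of 2.51 (2.05 to 3.0) and 2.59 (2.13 to 3.06). These genes were named for their high ratios, so their intervals support nothing further.

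**Figure D3:**
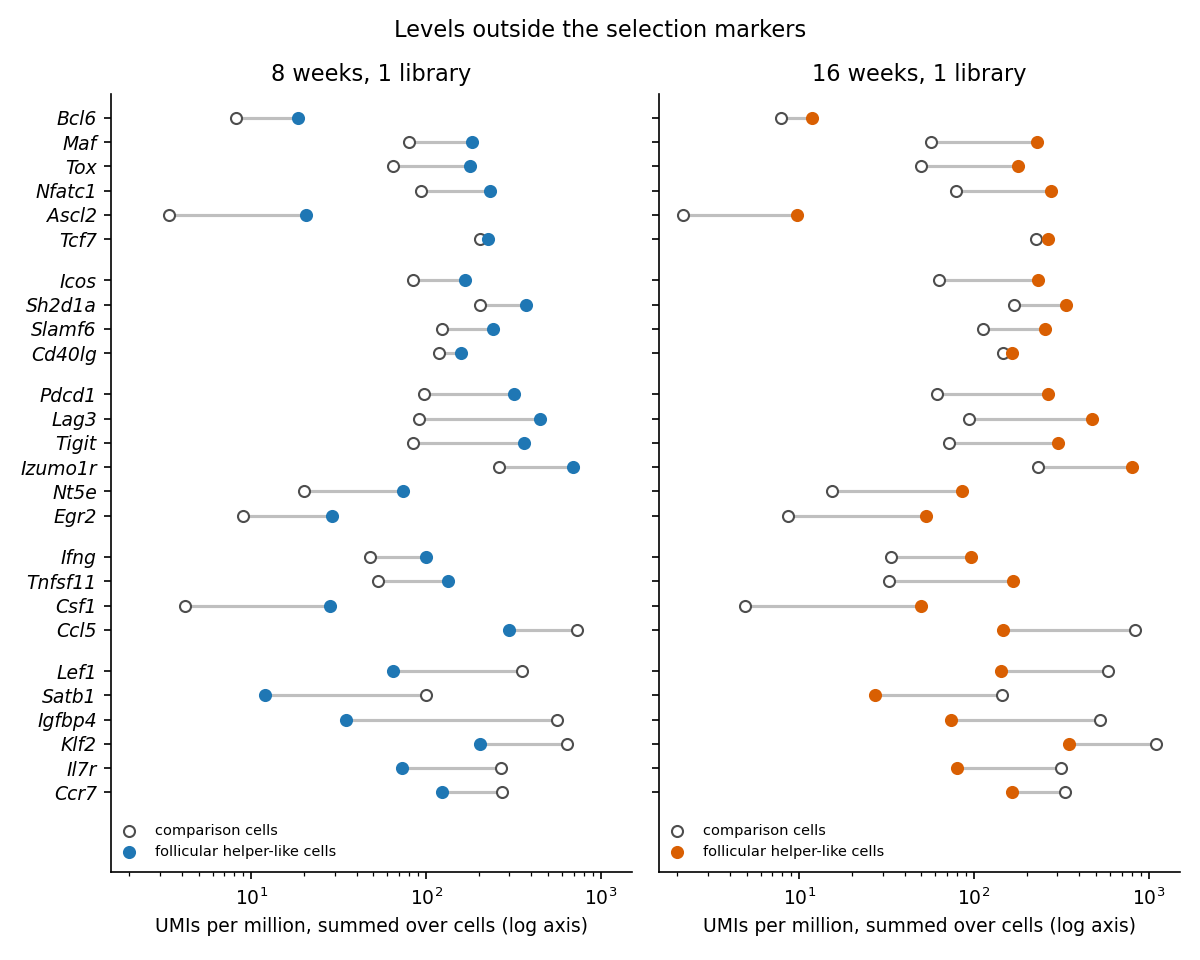
CPM (x axis, log scale) of genes outside the selection markers, summed over the selected cells (filled) and the comparison cells (open) of the 8-week (left) and 16-week (right) library. Inhibitory and anergy genes such as Lag3 (446 against 90.5 at 8 weeks) lie to the right in selected cells and naive genes such as Igfbp4 (34.6 against 559) to the left, while Tcf7 (227 against 204) lies close together.

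Transcription factors of the follicular helper programme were mostly higher in the selected cells. Of 11 measured, 9 had ratios above 0 in both libraries and 4, Maf, Irf4, Tox and Nfatc1, had 1 or more in both, beside 1.97% of all genes. The list's median log2 ratio was 1.18 at 8 weeks and 0.75 at 16 weeks, beside 0.02 and 0.11 over all genes tested. The share of all genes above or below 0 in both libraries is not given here. Counts above or below 0, in this and the later lists, therefore have no background beside them. Maf, which drives Il21 transcription, was at 182 against 80.2 CPM at 8 weeks and at 228 against 56.8 at 16 weeks, log2 ratios of 1.19 (0.94 to 1.43) and 2.0 (1.72 to 2.29). Tox, a factor of both follicular helper and exhausted T cells, was at 179 against 64.5 and 179 against 49.5, 1.47 (1.21 to 1.74) and 1.86 (1.55 to 2.17). Ascl2, which induces Cxcr5, was higher at 2.57 (1.59 to 3.71) and 2.16 (0.62 to 3.74), on 29 and 9 UMIs. Tcf7, which encodes TCF-1 and marks stem-like T cells, was at 227 against 204 and 264 against 226 CPM, log2 ratios of 0.15 (-0.04 to 0.34) and 0.23 (0.01 to 0.43), whereas Lef1, its paralog, was lower at -2.45 (-2.78 to -2.15) and -2.02 (-2.29 to -1.77).

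The genes that oppose the programme had no common direction. Of 10 measured, 3 were above 0 and 4 below 0 in both libraries, and 2, Klf2 and S1pr1, were at -1 or less in both, beside 2.42% of all genes. Klf2 was at 203 against 637 CPM at 8 weeks and at 348 against 1100 at 16 weeks, log2 ratios of -1.65 (-1.83 to -1.47) and -1.66 (-1.83 to -1.5). S1pr1, the receptor for egress that Klf2 induces, was at -1.54 (-1.84 to -1.26) and -1.68 (-2.02 to -1.37). Prdm1, which encodes Blimp-1, was at 0.60 (-0.32 to 1.44) and 1.89 (1.06 to 2.71), on 19 and 26 UMIs in selected cells, and Il2rb, a chain of the IL-2 receptor, was higher at 0.83 (0.64 to 1.01) and 1.28 (1.05 to 1.51).

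Help receptors and their adaptors were higher by about 0.6 on the log2 scale: 11 of 16 were above 0 in both libraries, with a median of 0.60 at 8 weeks and 0.57 at 16 weeks, and 3, Icos, Pdcd1 and Btla, were at 1 or more in both, beside 1.97% of all genes. Icos was at 168 against 83.8 CPM and at 231 against 62.7, log2 ratios of 1.01 (0.75 to 1.26) and 1.88 (1.61 to 2.16). Sh2d1a, the adaptor SAP that lets T cells hold on to B cells, was at 0.87 (0.71 to 1.04) and 0.99 (0.79 to 1.19), and Slamf6, one of its receptors, at 0.96 (0.75 to 1.17) and 1.17 (0.93 to 1.40). Cd40lg, the signal by which helper cells license B cells, was at 158 against 119 and 165 against 147 CPM, 0.41 (0.17 to 0.64) and 0.18 (-0.10 to 0.43). After thinning, Cd40lg was detected in 23.1% of selected and 19.3% of comparison cells at 8 weeks and in 15.4% and 21% at 16 weeks.

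Genes of the list of inhibitory receptors and exhaustion were mostly higher in the selected cells of both libraries. This list overlaps others: Pdcd1 and Btla are also counted among the help receptors and Tox among the follicular helper factors. Of 10 measured, 9 were above 0 in both and 6, Pdcd1, Lag3, Tigit, Entpd1, Tox and Btla, were at 1 or more in both, beside 1.97% of all genes. The list median was 1.27 at 8 weeks and 1.65 at 16 weeks, and 1.13 at 16 weeks with depth-matched comparison cells. Pdcd1 was at 320 against 96.7 CPM and at 264 against 61.1, log2 ratios of 1.73 (1.52 to 1.93) and 2.11 (1.84 to 2.38). Lag3 was at 446 against 90.5 and at 470 against 93.6, 2.30 (2.10 to 2.5) and 2.33 (2.12 to 2.54). Tigit, an inhibitory receptor for nectin ligands, was at 362 against 84.6 and at 302 against 71.9, 2.10 (1.89 to 2.31) and 2.07 (1.82 to 2.32). On thinned counts Lag3 was detected in 39.8% and 41.0% of selected cells, 6.82% and 4.34% of comparison cells, 14.0% and 7.90% of Cd8 cells and 28.2% and 27.8% of Foxp3 cells. Tigit was at 407 and 333 CPM in Foxp3 cells, and its log2 ratio of selected to Foxp3 cells was -0.17 (-0.33 to 0.00) and -0.14 (-0.36 to 0.08). Havcr2, which encodes TIM-3, a receptor of terminal exhaustion, had 16 and 6 UMIs in selected cells. Eomes had 6 and 0 UMIs in selected against 23 and 44 in comparison cells.

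Genes of T cell anergy, the unresponsive state that follows antigen without costimulation, were also higher: 6 of 7 measured were above 0 in both libraries and 5, Izumo1r, Nt5e, Dgkz, Egr2 and Nrp1, were at 1 or more in both, beside 1.97% of all genes. The median was 1.14 at 8 weeks and 1.79 at 16 weeks, and 1.51 at 16 weeks with depth-matched comparison cells. Izumo1r (chromosome 9, 14885814 to 14903949, minus strand) was at 696 against 263 CPM at 8 weeks and at 803 against 233 at 16 weeks, 1.41 (1.28 to 1.54) and 1.79 (1.64 to 1.93). Nt5e, the ectoenzyme CD73 (chromosome 9, 88327197 to 88372092, plus strand), was at 73.5 against 19.9 and at 85.3 against 15.4, 1.88 (1.44 to 2.34) and 2.47 (1.96 to 2.99). Dgka, a diacylglycerol kinase that blunts receptor signalling, went the other way at -0.46 (-0.64 to -0.29) and -0.87 (-1.10 to -0.66), while its relative Dgkz was at 1.13 (0.85 to 1.42) and 1.17 (0.86 to 1.48). In Foxp3 cells, which belong to the same islets and also carry these genes, Izumo1r was at 641 and 752 CPM, and the log2 ratio of selected to Foxp3 cells was 0.12 (-0.01 to 0.24) and 0.09 (-0.04 to 0.23). Nt5e was above the Foxp3 cells at 0.91 (0.46 to 1.38) and 0.87 (0.38 to 1.37).

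Regulatory T cell genes other than Foxp3 were compared with both the comparison and the Foxp3 cells. Against comparison cells the list's median log2 ratio was 0.61 at 8 weeks and 1.42 at 16 weeks, and 3 of 10 measured genes, Tnfrsf4, Nrp1 and Capg, were at 1 or more in both, beside 1.97% of all genes. Tnfrsf4, the costimulatory receptor OX40, was at 522 against 150 and at 463 against 103 CPM. Against Foxp3 cells the selected cells were lower in Il2ra, the alpha chain of the IL-2 receptor, at -2.15 (-2.75 to -1.63) and -2.52 (-3.48 to -1.76), in Ikzf2, which encodes Helios, at -1.16 (-1.37 to -0.96) and -1.16 (-1.42 to -0.91), and in Ctla4 at -1.55 (-1.77 to -1.34) and -0.69 (-0.91 to -0.49). Of the 3 genes past 1, Tnfrsf4 and Capg were below the Foxp3 cells, at -0.57 and -0.39 and at -0.97 and -0.78, whereas Nrp1 was at 0.49 (0.11 to 0.88) and 0.29 (-0.15 to 0.72). Against the rest of the gate, Il2ra was at 23.3 against 16.0 and 15.1 against 12.2 CPM, and its intervals included 0 in both libraries.

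Of the cytokine genes, 6 of 13 measured had log2 ratios of 1 or more in both libraries (Ifng, Lta, Csf1, Tnfsf11, Ccl3 and Ccl4), beside 1.97% of all genes, and 1, Ccl5, was at -1 or less in both, beside 2.42%. Ifng, the Th1 cytokine, was detected in 64 of 273 and 41 of 200 selected cells, at 99.6 against 47.9 and at 96.1 against 33.3 CPM, log2 ratios of 1.06 (0.72 to 1.39) and 1.53 (1.12 to 1.94). Tnfsf11, the ligand RANKL, was at 134 against 53.0 and at 167 against 32.7, 1.33 (1.04 to 1.63) and 2.35 (2.0 to 2.71). Ccl5, a chemokine of cytotoxic and memory cells, was at 299 against 732 and at 146 against 837, -1.29 (-1.44 to -1.14) and -2.52 (-2.78 to -2.27), and 1 cell gave 57.8% of the 16-week UMIs. With only cells that have a Cd4 UMI its 8-week ratio was 0.21, and with at least 2 markers its 16-week ratio was 0.30. Il4 had 13 and 16 UMIs in 5 and 4 selected cells, and Il10 had 20 and 18 UMIs in 9 and 9 cells. Il5 and Il22 had no UMI in selected or comparison cells of either library.

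The genes lowest in the selected cells were of 2 kinds. Of the 15 lowest, Nusap1, Cep55, Prc1, Aurkb, Clspn, Hist1h2ac and Mybl2 act in cell division or DNA replication, and the rule removed dividing cells from the selected but not from the comparison cells. Dividing cells, most of them with 3 or more markers, held 815272 of the 3567943 comparison UMIs at 8 weeks and 444738 of 3698106 at 16 weeks. Nusap1 had 0 UMIs in selected cells against 132 in comparison cells at 8 weeks, at least 17.5-fold lower, and 0 against 47 at 16 weeks, at least 3.92-fold lower, with 3 UMIs set in place of 0. Without dividing comparison cells Nusap1, Cep55, Aurkb, Clspn and Mybl2 had ratios above 0 in 1 or both libraries, but these ratios rest on 0 to 2 UMIs in selected cells and give no direction. The others included Igfbp4, Pdlim4, Cpne4, Treml2, Acvrl1, Col6a4 and Gm20696. When the comparison cells held no dividing cells, these 7 were among the 8 lowest, followed by Dapl1, Prf1, Vipr1, Rasl11b, Amigo2, Nacc2 and Adh1. Col6a4 had 0 UMIs in selected cells of both libraries, against 22 and 31 in comparison cells, at least 2.91-fold and 2.59-fold lower with 3 UMIs in place of 0.

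Naive and stem-like genes were the lowest of the lists of T cell states: of 12 measured, 9 were at -1 or less in both libraries (among them Lef1, Ccr7, Klf2, S1pr1, Satb1, Dapl1, Il7r and Igfbp4), beside 2.42% of all genes, and the median was -1.76 at 8 weeks and -1.82 at 16 weeks. Igfbp4, a binding protein of insulin-like growth factors, was at 34.6 against 559 CPM and at 73.5 against 525, -4.00 (-4.45 to -3.60) and -2.83 (-3.21 to -2.49), in 12 and 10 selected cells, 1 of which gave 54.4% of the UMIs at 16 weeks. Il7r, the survival receptor for IL-7, was at 72.8 against 269 and at 79.9 against 315, -1.88 (-2.20 to -1.59) and -1.97 (-2.34 to -1.64). Comparison cells weighted to the depth of the selected cells gave list medians of -1.25 and -1.32, and leaving out cells with 2 or more beta chains gave -2.35 at 16 weeks. Tcf7 was the exception in this list, as above.

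Effector memory genes gave no common direction. Of 14 measured, 7 were above 0 in both libraries and none was at 1 or more in both; the median was 0.04 at 8 weeks and 0.85 at 16 weeks. The rule read on thinned cells gave -0.32 and 0.26, and depth-matched comparison cells gave -0.31 and 0.31. S100a4, a calcium-binding protein of memory cells, was at 95.4 against 103 CPM at 8 weeks, -0.11 (-0.41 to 0.18), and at 110 against 38.7 at 16 weeks, 1.51 (1.13 to 1.89), and the 16-week value was -0.26 when the rule was read on thinned cells. Cd44, a marker of antigen experience, was at 0.90 (0.59 to 1.21) and 1.16 (0.80 to 1.51). Immediate early and stress genes were lower in selected cells, with medians of -0.50 and -0.42 over 12 genes, and none of the 12 was above 0 in both libraries. Depth-matched comparison cells gave -0.36 and -0.09.

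The other T cell lists are given by their counts and medians, with 1.97% and 2.42% of all genes past 1 and -1. Th1 genes had medians of 0.32 and 0.74 over 10 genes, with Ifng past 1 and Ccl5 past -1 in both libraries, and depth-matched comparison cells gave 0.12 at 16 weeks. Of 4 measured Th2 genes Ccr8 was past 1 in both, and the single measured Th17 gene had ratios of -0.03 and 0.93. Genes of receptor signalling and activation had medians of 0.46 and 0.91 over 12 genes, and Egr2, Tnfrsf9, Tnfrsf4 and Irf4 were past 1 in both. Tissue residency genes had medians of 0.21 and 1.09 over 5 genes, glycolysis genes 0.11 and 0.22 over 8, and T cell identity genes 0.46 and 0.54 over 7, with none past 1 in both. Type I interferon genes had medians of -0.48 and -0.52 over 7 genes, with Ifit1 past -1 in both. The cytotoxic list summed to 654 against 459 CPM at 8 weeks and 457 against 390 at 16 weeks. Nkg7 alone gave 515 of the 926 UMIs in selected cells at 8 weeks and 196 of 423 at 16 weeks. Over 7 measured cytotoxic genes the medians were 0.26 and -1.30. Of these genes 2 were above 0 and 3 below 0 in both libraries, with Prf1 and Klrd1 past -1 in both. The list of NK, NKT and gamma-delta T cells summed to 28.3 against 72.6 and 3.24 against 31.9. Dendritic, endocrine and endothelial or stromal lists were between 1.08 and 40 CPM in selected cells, and the 4 erythroid genes were at 0.

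The selected cells were not uniform. At 8 weeks 27 selected cells and at 16 weeks 17 had both Il21 and Cxcr5, and 133 and 99 had at least 1 of them. The 90 and 80 cells with Il21 differed from the 183 and 120 without it in Lag3, at 603 against 361 CPM at 8 weeks, a log2 ratio of 0.74 (0.51 to 0.97), and at 659 against 336 at 16 weeks, 0.97 (0.69 to 1.26). Ahr, the aryl hydrocarbon receptor, was at 1.01 (0.48 to 1.54) and 0.76 (0.12 to 1.42), and Nfil3, a basic leucine zipper repressor, at 1.12 (0.43 to 1.81) and 0.80 (0.06 to 1.57); both were among the 6 genes highest with Il21 by the smaller ratio. Pdcd1 was at 0.16 (-0.13 to 0.44) and 0.17 (-0.21 to 0.54), within counting error. Median depths with and without Il21 were 4526 and 4466 UMIs at 8 weeks and 3886 and 3589 at 16 weeks.

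Cells with Cxcr5 were set against those without it. Cxcr6, a chemokine receptor of tissue T cells, was the lowest gene in the 70 and 36 cells with Cxcr5, at 15.2 against 105 CPM at 8 weeks, -2.68 (-4.27 to -1.62), and at 5.47 against 87.5 at 16 weeks, -3.43 (-9.33 to -1.47), where it was 1 UMI. Nkg7, a granule protein, was at -1.52 (-1.94 to -1.14) and -2.28 (-3.51 to -1.40). Lag3 was at 298 against 503 and at 142 against 551 CPM, -0.75 (-1.06 to -0.46) and -1.93 (-2.59 to -1.38), and Ifng at -0.76 (-1.45 to -0.15) and -1.92 (-3.71 to -0.77). Pdcd1 was higher with Cxcr5, at 0.34 (0.04 to 0.62) and 1.28 (0.88 to 1.66), and Cxcr3, a chemokine receptor of Th1 cells, was at 0.42 (-0.01 to 0.84) and 1.05 (0.45 to 1.61). Bcl6 was at 27.8 against 14.7 and at 21.9 against 9.42 CPM, with intervals that included 0 in both libraries.

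Clonal expansion was read from the receptor libraries, with a clone defined as cells of a library with the same CDR3 nucleotides and V and J segments in every productive alpha and beta chain. Both chains were found in 233 of 273 selected cells at 8 weeks and 159 of 200 at 16 weeks. Of these, 77, or 33.0% (27.0 to 39.5), belonged to a clone of 2 or more cells at 8 weeks and 32, or 20.1% (14.2 to 27.2), at 16 weeks. In the comparison cells the shares were 5.48% (3.91 to 7.45) of 693 and 3.15% (2.05 to 4.62) of 793, so the selected cells were 27.6 points (21.5 to 34, Newcombe) and 17.0 points (11.3 to 23.9) higher. Between the 2 ages the selected cells' share differed by -12.9 points (-21.3 to -3.96). Dividing cells of the gate were expanded in 31.9% (19.1 to 47.1) and 23.5% (10.7 to 41.2), Foxp3 cells in 6.25% (3.27 to 10.7) and 3.59% (1.33 to 7.66), and cells with Cd8a or Cd8b1 and no Foxp3 in 10.2% (6.74 to 14.8) and 2.89% (1.25 to 5.61). Depth-matched comparison cells gave 8.48% and 6.45%. Cells of 1 clone share an origin and are not independent, which these intervals do not cover.

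**Figure D4:**
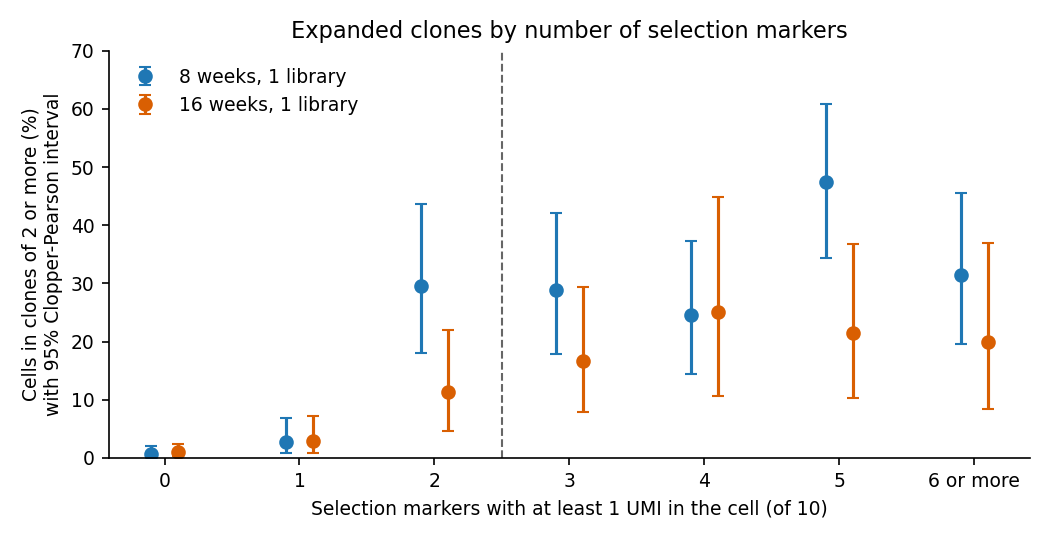
Percent of cells with both receptor chains that belong to a clone of 2 or more cells (y axis, with 95% Clopper-Pearson intervals) by number of selection markers detected (x axis), 1 library per age, dividing cells left out; the dashed line is the selection limit. The share was 0.673% and 1.07% with no marker and 29.6% and 11.3% with 2 markers, just outside the limit.

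Expanded clones were as frequent just outside the selection limit as just inside it within their intervals, as the plot of expanded clones by marker number shows. With no marker 3 of 446 cells at 8 weeks and 6 of 559 at 16 weeks were expanded, 0.673% (0.139 to 1.95) and 1.07% (0.395 to 2.32). With 2 markers the shares were 29.6% (18.0 to 43.6) and 11.3% (4.66 to 21.9), and with 3 they were 28.8% (17.8 to 42.1) and 16.7% (7.92 to 29.3). At 8 weeks cells with 5 markers reached 47.5% (34.3 to 60.9). Above 2 markers the intervals of neighbouring classes overlapped in both libraries.

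The selected cells were spread over 191 receptors at 8 weeks and 145 at 16 weeks. Of these clones 156 and 127 were single cells, and 22 and 9 held 2 or more selected cells. Clones with a selected cell also reached into other cells of the library: 11 and 7 held a non-dividing comparison cell, 9 and 3 a dividing cell and 3 and 1 a Foxp3 cell. A cell with Cd8a or Cd8b1 and no Foxp3, whether or not it had a Cd4 UMI, was in 4 and 1 of these clones. Of the 23 and 17 non-dividing comparison cells that were expanded, 15 and 7 belonged to a clone with a selected cell. Of the 44 and 32 distinct receptors of dividing cells, 9 and 3 were shared with a selected cell.

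The largest clone at 8 weeks, shown above, had 4 to 7 markers in each of its 11 cells. Cd200 was detected in 11 of them, Tbc1d4 in 10, Gpm6b in 9, Lag3 in 10, Il21 in 3, Cxcr5 in 1 and Bcl6 in 1. The next, TRAV13D-1/TRAJ22 with TRBV1/TRBJ1-6, held 5 selected cells and 1 dividing cell. At 16 weeks the largest were TRAV6-7-DV9/TRAJ37 with TRBV13-2/TRBJ2-4, with 4 selected cells and 1 Foxp3 cell, and TRAV5-4/TRAJ53 with TRBV19/TRBJ2-7, with 4 selected cells. In the latter Il21 was detected in 3 cells, Ifng in 3 and Cxcr5 in none. Without all cells that carry the beta chain of the largest 8-week clone, an alternative chosen after the data were seen, no count or recomputed list median left its range.

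Expanded selected cells were compared with selected cells of single-cell clones. Bcl6 was at 31.6 against 8.78 CPM at 8 weeks, a log2 ratio of 1.82 (0.44 to 3.34), and at 25.6 against 10.5 at 16 weeks, 1.42 (-1.29 to 3.43). These Bcl6 values rest on 12 against 8 UMIs at 8 weeks and 3 against 7 at 16 weeks. Il21, a marker of the rule, was higher in both libraries, at 121 against 80.1, 0.60 (0.03 to 1.15), and at 291 against 133, 1.14 (0.51 to 1.71). Other markers of the rule were higher too, among them Cd200 at 0.55 and 0.72 and Tbc1d4 at 0.52 and 0.51. Only Angptl2 had a ratio below 0, -0.22 at 16 weeks. Expanded cells had a median of 5 markers against 4 at 8 weeks and 4.5 against 4 at 16 weeks. Myc, which drives growth of activated cells, was at 10.5 against 43.9, -1.91 (-4.00 to -0.59), at 8 weeks and at 0 against 41.8 at 16 weeks, on 4 and 0 UMIs in expanded cells. Dtx1, a ubiquitin ligase of the Notch pathway linked to anergy, was at 5.27 against 43.9, -2.76 (-6.15 to -1.11), and at 8.55 against 49.3, -1.96 (-7.87 to 0.05), on 2 and 1 UMIs in expanded cells. Izumo1r differed by less than counting error, at -0.04 (-0.26 to 0.17) and 0.12 (-0.20 to 0.42). Median depth was 4444 against 5464 UMIs at 8 weeks and 3713 against 4239 at 16 weeks, and expanded cells numbered 77 and 32. Of the 77, 11 belonged to 1 clone, and cells of a clone are not independent, which these intervals do not cover.

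Receptor segments were counted once per distinct receptor, to limit the weight of clone size. A receptor was the full set of productive chains, so a clone with an extra chain in some cells could still count more than once. Of 73 alpha and 20 beta V segments, 3 had a higher share in the selected cells in both libraries with intervals above 0 and none had a lower one, with intervals not adjusted for the number of segments. TRAV5N-4 was in 14.1% (9.53 to 19.9) of 191 receptors of selected and 3.98% (2.64 to 5.73) of 679 of comparison cells at 8 weeks, and in 10.3% (5.91 to 16.5) of 145 and 3.31% (2.17 to 4.81) of 786 at 16 weeks. TRBV15 was in 15.2% (10.4 to 21.1) against 8.54% (6.55 to 10.9) and in 18.6% (12.6 to 25.9) against 8.78% (6.89 to 11.0). TRBV1 was in 18.8% (13.6 to 25.1) against 9.43% (7.33 to 11.9) and in 17.9% (12.1 to 25.2) against 12.0% (9.77 to 14.4), a difference at 16 weeks of 5.97 points (0.0484 to 13.3). TRAV5-4, close in sequence to TRAV5N-4 so that contigs could be assigned to either, was in 16.8% against 6.92% and in 13.8% against 9.41%. TRBV19 differed between the libraries: its share in selected cells was 5.24% (2.54 to 9.42) at 8 weeks and 15.9% (10.3 to 22.8) at 16 weeks, against 8.25% and 8.02% in comparison cells.

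Between the ages, the selected cells of the 16-week library were set against those of the 8-week library, the comparison that the series names. Of 6011 genes tested, 79 (1.31%) had a log2 ratio of 1 or more and 99 (1.65%) of -1 or less, on as few as 20 UMIs on the higher side. With at least 50 UMIs the counts were 12 and 9, and without cells with 2 or more beta chains 52 and 108. The genes past the limit were mostly of low level. The first of those higher at 16 weeks were Pawr, Traf3, Parp10, Letm2, Dhx40, Cpt1a, Dnase2a, Myo3b, Fam117b and Mir142hg, each with 20 to 41 UMIs at 16 weeks. Traf3, a brake on noncanonical NF-kB signalling, had 11 UMIs at 8 weeks and 23 at 16 weeks in selected cells, 1.64 (0.58 to 2.86), against 0.12 in comparison cells. The first of those lower were Sil1, Slc35c1, Xcl1, Rad52, Ocrl, Klk1b27, Zswim8, Nrgn, Rnaseh2b and Mtfmt. Xcl1, a chemokine for cross-presenting dendritic cells, had 103 UMIs in 23 selected cells at 8 weeks and 12 UMIs in 5 cells at 16 weeks, -2.44 (-3.49 to -1.62), against -0.89 in comparison cells; 1 cell gave 58.3% of the 16-week UMIs.

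Lists between the ages are given for selected and comparison cells side by side. Of the immediate early and stress genes, 12 of 12 measured had the higher level at 16 weeks in both, with medians of 0.61 in selected and 0.48 in comparison cells, and naive genes were higher with medians of 0.59 and 0.34. Klf2 was higher by 0.78 (0.54 to 1.01) in selected and by 0.79 in comparison cells, so that its ratio between them stayed close to -1.65. Immediate early genes respond to tissue handling as well as to receptor signals, and their part in this difference was not tested. Effector memory genes had medians of -0.09 in selected and -0.72 in comparison cells, and 8 of 14 and 13 of 14 were lower at 16 weeks. Genes of inhibitory receptors and exhaustion had medians of -0.12 and -0.28 and help receptors of 0.04 and -0.08.

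Single genes of the programme differed little between the libraries, most by less than 1 on the log2 scale. Pdcd1 was at 320 and 264 CPM in selected cells at 8 and 16 weeks, -0.28 (-0.51 to -0.05), and Tigit at 362 and 302, -0.26 (-0.48 to -0.05). Lag3 was at 446 and 470, 0.08 (-0.10 to 0.25). Ctla4, the competitor of Cd28, was at 166 and 280, 0.75 (0.49 to 1.01), and at 108 and 81.9 in comparison cells. Icos was at 168 and 231, 0.46 (0.19 to 0.73), Egr2, a factor induced by the receptor, at 29.0 and 52.9, 0.87 (0.24 to 1.5), and Prdm1 at 13.4 and 28.1, 1.05 (0.16 to 2.0). Bcl6 at 18.4 and 11.9 gave -0.59 (-1.79 to 0.44), which was not detectable at this depth.

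**Figure D5:**
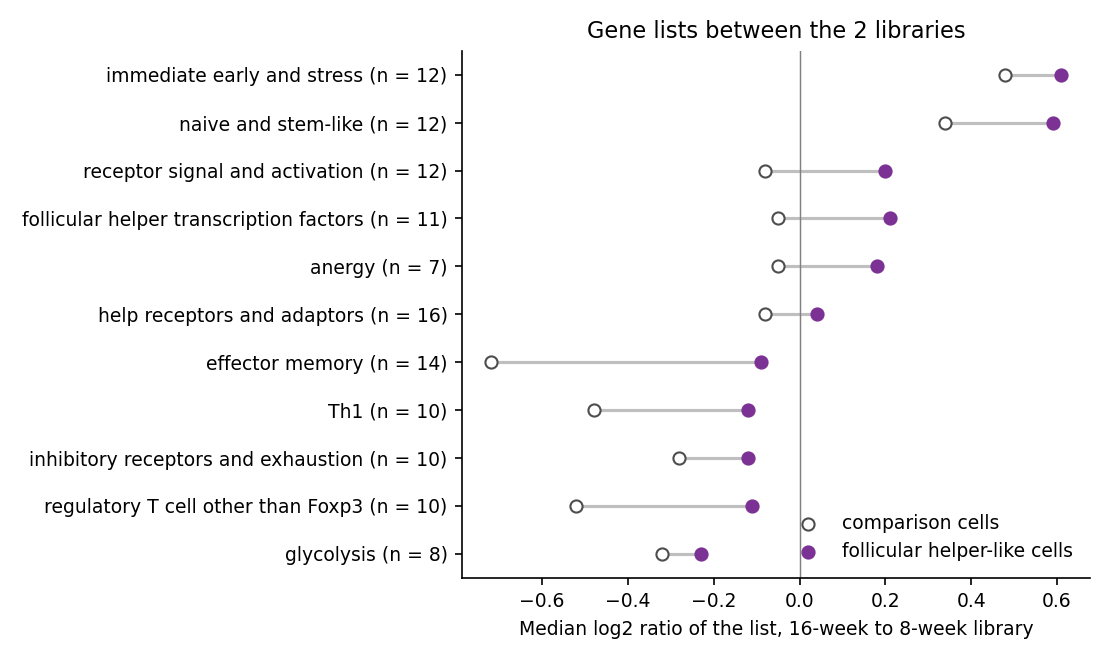
Median log2 ratio of each gene list, 16-week to 8-week library (x axis), in the selected cells (filled) and the comparison cells (open), with the number of genes measured beside each list. Immediate early and naive genes lie above 0 in both, at 0.61 and 0.59 in selected cells, while effector memory genes lie at -0.09 in selected and -0.72 in comparison cells.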

How the data were processed

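The deposited files held whole-number UMI counts per gene and cell and annotated receptor contigs, 1 RNA and 1 TCR library per age. Per the file headers the count matrices were written by 10x software version 3.0.1, and the submitters' processing notes name the mm10 build and Seurat; the sources used here give no further step. Cells with at least 500 genes and at most 10% mitochondrial UMIs were kept. Counts were summed over selected and comparison cells, divided by total UMIs (CPM) and compared as log2 ratios with 0.5 UMIs added, with exact conditional 95% intervals; levels carry no length correction, and 5′ counts are not compared between genes. Genes needed 20 UMIs, and no count model was fitted, since each age had 1 library. The ratio code was tested on simulated data. Named genes are the 15 highest and lowest by the smaller ratio and the 10 highest and lowest between ages (from at least 10 cells), with at most 20% of UMIs from 1 cell, plus list genes and, within subsets, the first 6 each way. Some genes that the rule or lists name are not reported here. Members and lists were chosen with earlier results of these data known. Annotation was GENCODE M21, matched by Ensembl identifier; 6 of 266 list genes were not found by symbol. Python 3.11.15, numpy 2.4.6, pandas 2.3.3 and scipy 1.17.1 were used.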

Additional observations from a re-analysis of the deposited data

Results flagged for a closer look

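Spp1, which encodes the secreted phosphoprotein osteopontin, had ratios of opposite sign in the 2 libraries: the log2 ratio of selected to comparison cells was -0.71 (-0.92 to -0.52) at 8 weeks and 8.01 (6.07 to 13.90) at 16 weeks, where the comparison cells held 1 UMI. The difference between the libraries was not tested. Of 1060 UMIs in comparison cells at 8 weeks, 1041 came from 3 cells that had no beta chain and no Cd4 UMI, and 1 selected cell held 164 of the 256 UMIs in selected cells. By cells, Spp1 was detected in 17 of 273 selected cells at 8 weeks, 6.23% (3.67 to 9.78), and 13 of 200 at 16 weeks, 6.50% (3.51 to 10.9), against 7 of 1039, 0.674% (0.271 to 1.38), and 1 of 1169, 0.0855% (0.00217 to 0.476). A beta chain was found in 15 of the 17 and 12 of the 13 selected cells with Spp1.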

How the results depend on the processing

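No paired analysis was possible because each age had 1 library of each kind. The gene counts depended on the UMI minimum: with 5 UMIs they were 345 higher, 363 lower and, between ages, 435 and 417, and with 50 UMIs 82, 98, 12 and 9. With at least 2 markers the selected share was 27.4% and 20.5% at 8 and 16 weeks, 3.44% of comparison cells were expanded at 8 weeks and the naive median was -1.48 at 16 weeks; with at least 4 the shares were 14.9% and 9.50% and the anergy median 1.41 at 16 weeks. The rule on thinned cells gave shares of 12.0% and 8.05%, expanded shares of 39.7% and 8.08% at 8 weeks in selected and comparison cells, 78 higher genes, and medians of 1.51 for anergy, 0.14 for Th1 and -0.16 for immediate early genes at 16 weeks, 0.32 and 0.74 for regulatory genes and -0.32 and 0.26 for effector memory genes. Only cells with a Cd4 UMI gave shares of 31.6% and 23.4%, 117 lower genes, and at 16 weeks medians of 1.48 for anergy and -0.23 for immediate early genes. Without cells with 2 beta chains the 16-week share was 12.7%, 52 genes were higher at 16 weeks, and the 16-week medians were 1.94 for anergy and -2.35 for naive genes. Depth-matched comparison cells were expanded in 8.48% and 6.45%, and gave 101 higher genes and medians of -1.25 and -1.32 for naive, -0.31 and 0.31 for effector memory, -0.36 and -0.09 for immediate early genes and, at 16 weeks, 1.13 for inhibitory, 1.51 for anergy and 0.12 for Th1 genes. Equal weight per cell gave medians of 1.49 for follicular helper factors and -2.40 for naive genes at 8 weeks and 2.04 for anergy at 16 weeks, and the median of ratios gave -0.58 for immediate early genes at 16 weeks. Without dividing cells 3.56% of comparison cells were expanded at 8 weeks and the immediate early median was -0.74. The beta chain alone gave 42.7% expanded selected cells at 8 weeks and 5.04% of comparison cells at 16 weeks.

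Single genes that changed sign were Ccl5, at 0.30 at 16 weeks with at least 2 markers and 0.21 at 8 weeks with only Cd4 cells; Lgals1, at -0.16 and -0.23 at 8 weeks with the thinned rule and depth-matched cells; S100a4, at -0.26 at 16 weeks with the thinned rule; and, without dividing comparison cells, Cep55 and Mybl2, each at 0.96 at 8 and 0.23 at 16 weeks, and at 16 weeks Aurkb and Clspn, each at 1.81, and Nusap1, at 0.23, values that rest on 0 to 2 UMIs in selected cells. In all, 1336 of 1584 values of 66 named genes stayed within their main interval, 236 left it with the same sign or with a main interval that held 0, and 12 changed sign. Apart from dividing cells, whose removal takes the division genes out of the comparison cells, the cause was not tested. Depth limits low genes most: Bcl6 rests on 26 and 11 UMIs in selected cells.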
